A study of Mus musculus with 6 samples.

Results

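The genes of chemokines and their receptors were examined in 4T1, a mouse mammary carcinoma cell line that here carries a luciferase (Luc2) and a red fluorescent protein (RFP). The members are the genes whose deposited symbol starts as that of a CC, CXC, CX3C or XC chemokine (Ccl, Cxcl, Cx3cl, Xcl), of a chemokine receptor (Ccr, Ccrl, Cxcr, Cx3cr, Xcr) or of an atypical chemokine receptor (Ackr). They number 44 of the 13912 genes in the deposited table, 27 ligands and 17 receptors. A further 18 protein-coding symbols of this form in GENCODE M21 had no row in the table and were not analysed here, among them Ccl19, Ccl21a, Ccl28, Xcl1, Ccr4, Ccr6 and Ackr1. RNA was sequenced in 6 libraries of strain balb/c. The cultured group is 3 libraries of 4T1-Luc2-RFP cells that were not injected, and the tumour group is 3 libraries of 4T1-Luc2-RFP cells sorted by flow cytometry (FACS) out of tumours labelled MIND, grown in mammary glands. All 3 tumour libraries also bear the word Right in their titles. MIND commonly stands for the mammary intraductal model, in which cells are placed into a duct. All 6 libraries share the one reporter line, and only the tumour group is labelled as sorted. The sorting gate, the age of the mice and the time of growth were not given in the sources used here. The labels do not tell whether replicates are separate cultures or mice, and the tests therefore see library-to-library spread alone, possibly technical.

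Chemokines are small secreted proteins that draw leukocytes along a gradient. They act through receptors with 7 membrane passes that couple to inhibitory G proteins, and they are classed by the spacing of their leading cysteines. CXC chemokines with a Glu-Leu-Arg motif call neutrophils through Cxcr2, CXC chemokines induced by interferon call T cells through Cxcr3, and many CC chemokines call monocytes, macrophages and eosinophils. Atypical receptors bind chemokines without such signalling and take them up. In tumours, carcinoma cells and the leukocytes around them can both be sources of these ligands.

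Markers of the labelled cells and of other cells bear on every result here, so they come first. The 6 libraries held 35448588 to 41469090 reads. Levels are given as CPM (counts per 1000000 reads, on TMM-scaled totals), recovered from the deposited log2 values. All 7 epithelial and carcinoma markers (such as Epcam, Krt8 and Cdh1) were present in both groups, summing to 2430 to 3474 CPM in culture and 2453 to 2896 CPM in the tumour libraries. Of these 7, Cdh1 was lower in the tumour libraries with a log2 change of -0.91 ± 0.15 (SE; adjusted p = 0.00163 by limma), Krt7 was lower with one of -0.96 ± 0.20 (SE; adjusted p = 0.00594 by limma), and the other 5 did not pass. Most host cell markers were higher in the tumour libraries. Those with more than a few cultured reads included Pdgfra, at 31.8 CPM on average there and 66.8 CPM in tumour libraries, Cd68, at up to 19.9 CPM, and Zbtb46, at 4.24 and 4.28 CPM, which did not pass. Summed macrophage and monocyte markers (11 of 11 listed) ranged from 14.2 to 26.1 CPM in culture and 5901 to 8604 CPM in tumour libraries. Summed neutrophil markers (7 of 8 listed) ranged from 0.0663 to 0.352 CPM in culture and 222 to 2616 CPM in tumour libraries, with Retnlg, Mmp8 and Ngp at 0 reads in all cultured libraries. Fibroblast markers (7 of 7) summed to 23.5 to 51.5 and 6132 to 7886 CPM, endothelial markers (5 of 5) to 0.0938 to 0.431 and 86.7 to 134 CPM, and dendritic markers other than members (5 of 5) to 2.12 to 6.64 and 265 to 407 CPM, culture before tumour. Nearly all of that dendritic tumour sum was Itgax, at 396, 252 and 332 CPM in tumour libraries 1, 2 and 3. Tumour means of Cd209a, Clec9a and Flt3 were 8.46, 1.15 and 0.622 CPM. Of 8 T and NK cell markers only Cd4 and Cd8a had rows, at 0 reads in culture and 3.40 to 4.01 CPM together in the tumour libraries, and of 4 B cell markers only Cd79b, at 0.814 to 1.48 CPM there. Their part in the results below was not tested. In such libraries fewer cells of a type and less RNA per cell cannot be told apart.

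The comparison asks how the expression of these genes changes between dish and gland. Nearly all receptors and most ligands were higher in the tumour libraries, while the neutrophil chemokine Cxcl5 and the Ccr6 ligand Ccl20 were lower. By limma with Benjamini-Hochberg adjustment at 0.05 over the whole table, 35 of 44 members were higher, where 29.5% of all genes tested were, and 2 were lower, where 18.8% were. That is 37 members called in either direction, beside 48.2% of all genes. The groups did not overlap in 36 members that stood higher in tumour libraries, where 34.6% of all genes did so, and in 4 that stood lower, where 25.2% did, together 40 members beside 59.8% of all genes. Median log2 change, tumour mean minus cultured mean, was 8.26 over the members and 0.08 over all genes. With genes at 0 cultured reads set to a bound of 3 reads over the group, the members' median was 7.79. These counts are in part set by how the table was made. No gene in it had under 61 reads in all, so a gene absent from culture is present only through its tumour reads and had to be higher. Only 16 members had at least 61 reads in culture. Of these, 7 were higher, 2 lower and 7 did not pass, where 18.9% of the genes with that many cultured reads were higher and 22.3% lower.

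**Figure D1:**
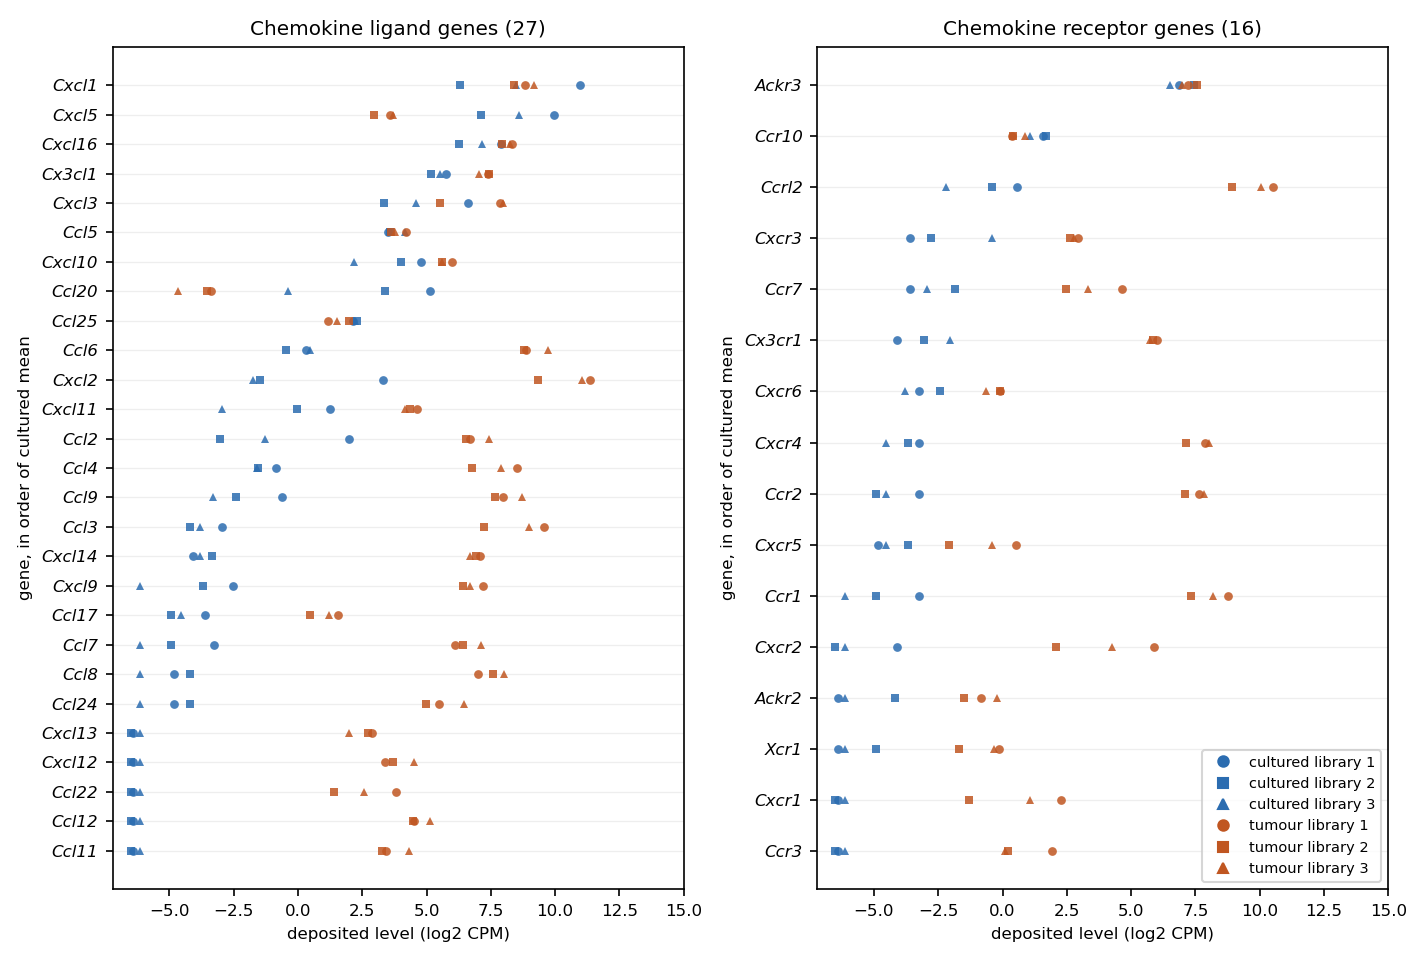
Deposited level on the log2 CPM scale of each ligand gene (left) and of 16 of the 17 receptor genes (right) in each of the 6 libraries, in order of the cultured mean; blue marks are cultured and orange marks tumour libraries. Of the ligands, Cxcl5 and Ccl20 have tumour marks wholly to the left at a called change, and all receptors shown but Ackr3 and Ccr10 have tumour marks far to the right.

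Ligands were sorted by their cultured level, with no test. A ligand is called made in culture where each cultured library held at least 1 CPM. It is called seen only in tumour libraries where the 3 cultured libraries held at most 3 reads in all, and low in culture otherwise. By this measure 8 ligands were made in culture (Cxcl1, Cxcl3, Cxcl5, Cxcl10, Cxcl16, Cx3cl1, Ccl5 and Ccl25), 12 were low in culture and 7 were seen only in tumour libraries. Of the 8 made in culture, 2 were higher, 1 lower and 5 did not pass. Among all genes 29.5% were higher and 18.8% lower, and among those with at least 61 cultured reads 18.9% and 22.3%. Taking a cultured mean of 1 CPM instead gave 13 ligands. The 5 added, Ccl2, Ccl6, Ccl20, Cxcl2 and Cxcl11, were above 1 CPM in some cultured libraries and below it in others.

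Of the members, Cxcl1, Cxcl2, Cxcl3 and Cxcl5 are ligands of Cxcr2 that call neutrophils, and they lie within 147 kb of each other on chromosome 5 of GRCm38. The promoters of Cxcl1, Cxcl2 and Cxcl3 are shown because these neighbours share a receptor and Cxcl2 alone of the 3 passed the test. Cxcl5 has no entry in the promoter table. Ccl20 stands beside them as the other ligand that fell, and Cxcl10 as an interferon-induced ligand. Sequences are RefSeq windows on GRCm38.p6, the 250 bases before the start site, 5′ to 3′ on the strand of the gene, and they cover chr5:90890995-90891244 (plus strand), chr5:90903649-90903898 (plus), chr5:90785851-90786100 (plus), chr1:83116516-83116765 (plus) and chr5:92348890-92349139 (minus). Capitals mark matches to the NF-kB consensus, and in Cxcl10 also the leftmost run, a match to GAAANNGAAA, the core of an interferon-stimulated response element.
Cxcl1: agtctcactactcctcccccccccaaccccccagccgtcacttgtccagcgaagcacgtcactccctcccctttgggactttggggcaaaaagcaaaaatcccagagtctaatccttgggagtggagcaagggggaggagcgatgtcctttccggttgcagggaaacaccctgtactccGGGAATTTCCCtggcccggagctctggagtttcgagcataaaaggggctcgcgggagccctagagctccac
Cxcl2: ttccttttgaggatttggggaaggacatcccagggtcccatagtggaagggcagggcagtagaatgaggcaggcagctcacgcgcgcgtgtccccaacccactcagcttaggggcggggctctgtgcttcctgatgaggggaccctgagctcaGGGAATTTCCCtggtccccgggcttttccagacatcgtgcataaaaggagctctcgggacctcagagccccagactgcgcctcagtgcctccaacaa
Cxcl3: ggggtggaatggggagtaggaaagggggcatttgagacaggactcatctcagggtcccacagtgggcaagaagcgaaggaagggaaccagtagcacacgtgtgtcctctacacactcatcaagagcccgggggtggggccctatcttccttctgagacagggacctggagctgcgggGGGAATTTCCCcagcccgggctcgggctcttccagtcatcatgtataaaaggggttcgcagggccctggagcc
Ccl20: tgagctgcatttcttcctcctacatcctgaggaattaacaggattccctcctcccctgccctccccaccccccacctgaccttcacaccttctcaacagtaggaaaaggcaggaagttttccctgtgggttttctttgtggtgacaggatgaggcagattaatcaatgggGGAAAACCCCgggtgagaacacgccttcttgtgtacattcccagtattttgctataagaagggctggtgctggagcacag
Cxcl10: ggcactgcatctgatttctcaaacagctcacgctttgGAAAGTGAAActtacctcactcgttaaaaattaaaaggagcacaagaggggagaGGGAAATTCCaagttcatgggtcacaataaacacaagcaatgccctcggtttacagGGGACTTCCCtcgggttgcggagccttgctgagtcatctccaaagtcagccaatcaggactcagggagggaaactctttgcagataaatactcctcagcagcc
In Cxcl1, Cxcl2 and Cxcl3 the capitals spell the same 11 bases, which hold a match on each strand, overlapping in all but 1 base at either end. These begin 71, 97 and 73 bases before the start site. In windows of 300 bases (250 before and 50 after the start), both strands searched, the NF-kB motif was found in 9 of the 31 members with a window and in 4.35% of 27025 genes with one. The GAAANNGAAA motif was found in 2 of 31 and in 3.49%. A match is a description of letters and not of a bound site.

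Among the neutrophil-attracting ligands Cxcl5 fell and Cxcl2 rose. Cxcl5 stood at 998, 138 and 390.5 CPM in cultured libraries 1, 2 and 3, and at 12.0, 7.75 and 12.9 CPM in tumour libraries 1, 2 and 3. All tumour values lay below all cultured ones, a log2 change of -5.15 ± 0.63 (SE; adjusted p = 0.000359 by limma), on chromosome 5 from 90759360 to 90761624. Cxcl2, the macrophage inflammatory protein 2 gene, stood at 9.97, 0.353 and 0.287 CPM in cultured libraries 1, 2 and 3, and at 2643, 653 and 2138 CPM in tumour libraries 1, 2 and 3. Every tumour library exceeded every cultured one by far, with cultured library 1 well above the other 2, a log2 change of 10.55 ± 1.28 (SE; adjusted p = 0.000334 by limma). Leaving out 1 library moved the change of Cxcl5 from -5.88 without cultured library 2 to -4.45 without cultured library 1, and that of Cxcl2 from 9.66 without cultured library 3 to 12.19 without cultured library 1, with the call kept each time.

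Cxcl1 and Cxcl3 were expressed in both groups and did not pass. Cxcl1, the ligand with the highest cultured mean, stood at 2014, 78.8 and 360.0 CPM in cultured libraries 1, 2 and 3, and at 451, 336 and 586 CPM in tumour libraries 1, 2 and 3. The cultured libraries spanned a 25.6-fold range and enclosed the tumour values, with a log2 change of 0.21 ± 1.0 (SE; adjusted p = 0.879 by limma). Without cultured library 2 its change was -0.93 (limma adjusted p = 0.308). Cxcl3 stood at 96.9, 10.1 and 24.3 CPM in cultured libraries 1, 2 and 3, and at 231, 45.5 and 251 CPM in tumour libraries 1, 2 and 3. Its groups overlapped through cultured library 1 and tumour library 2, with a log2 change of 2.26 ± 0.91 (SE; adjusted p = 0.0752 by limma). Without cultured library 1 the change of Cxcl3 was 3.14 (limma adjusted p = 0.0217), and without tumour library 2 it was 3.06 (limma adjusted p = 0.0321), both past the threshold.

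As shares of the summed CPM of the 27 ligands, these genes dominated culture. Together the 4 took 89.1%, 58.9% and 78.0% in cultured libraries 1, 2 and 3 and 51.5%, 33.5% and 46.2% in tumour libraries 1, 2 and 3. Cxcl5 alone took 28.5%, 35.8% and 39.3% of it in culture, against 0.185%, 0.250% and 0.199% in tumour libraries. Cxcl2 went the other way, from 0.285%, 0.0917% and 0.0289% to 40.8%, 21.0% and 33.1%. Inflammatory CC ligands (Ccl3, Ccl4, Ccl5, Ccl6 and Ccl9) went from 0.396%, 3.46% and 1.98% to 28.9%, 29.5% and 31.3%. The 27 ligands summed to 3501, 385 and 994 CPM in cultured libraries and 6484, 3107 and 6469 CPM in tumour libraries, so cultured library 1 held more ligand RNA than tumour library 2. CPM is not scaled for gene length, so long transcripts weigh more in these shares.

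**Figure D2:**
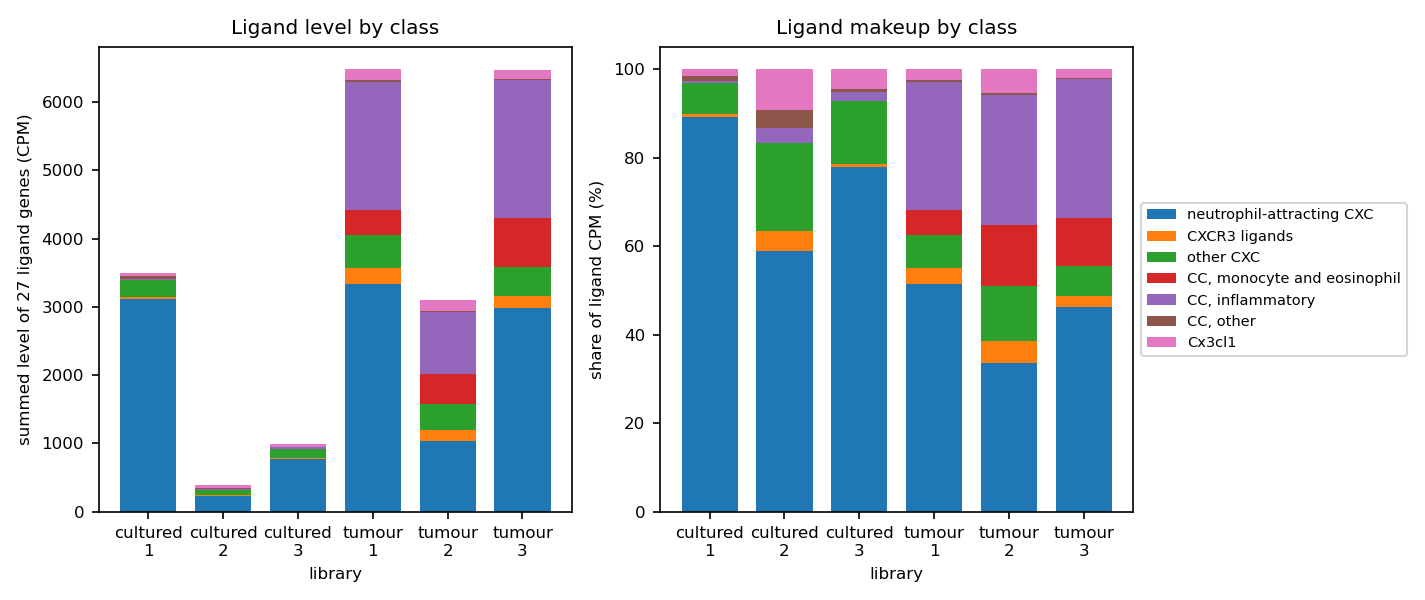
Summed CPM of the 27 ligand genes in each library (left) and the share of that sum by ligand class in percent (right), with bars stacked from 0. The class of Cxcl1, Cxcl2, Cxcl3 and Cxcl5 (blue) fills most of each cultured bar, and inflammatory CC ligands (purple) fill 28.9% to 31.3% of each tumour bar.

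Per kilobase of annotated exon, the order of cultured ligands by mean was Cxcl1 (436 ± 558 CPM per kb, SD, n = 3), Cxcl5 (273 ± 237), Cxcl16 (50.7 ± 27.4), Ccl5 (14.3 ± 3.69), Cxcl3 (12.5 ± 13.3), Cx3cl1 (11.5 ± 2.31), Ccl20 (10.8 ± 12.4) and Cxcl10 (7.16 ± 5.13). Each of these neighbours lay within the SD of the one before it except Ccl5, which lay below that of Cxcl16. In the tumour libraries the order began with Cxcl2 (876 ± 500.3 CPM per kb, SD, n = 3), Ccl3 (620.5 ± 404), Ccl8 (375 ± 126), Ccl4 (361 ± 198), Ccl6 (326 ± 125) and Cxcl1 (244 ± 66.8), where neighbours also lay within their SD. Of these 6, only Cxcl1 was among the ligands made in culture.

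Ccl20, the ligand of Ccr6 that calls dendritic cells and Th17 cells, fell to a few reads. It is low in culture by the rule above because cultured library 3 held under 1 CPM. It stood at 34.8, 10.4 and 0.746 CPM in cultured libraries 1, 2 and 3, and at 0.0814, 0.0738 and 0.0264 CPM in tumour libraries 1, 2 and 3, on chromosome 1 from 83116766 to 83119167. Tumour libraries held 3, 3 and 1 reads, and even the lowest cultured library lay above them, with a log2 change of -6.57 ± 1.26 (SE; adjusted p = 0.00365 by limma). The cultured libraries differed 46.6-fold among themselves, and leaving out 1 library moved the change from -8.11 without cultured library 3 to -5.35 without cultured library 1. The groups of Ccl25, a ligand of Ccr9 known from thymus and gut, did not overlap either, at 4.41, 4.93 and 4.68 CPM in cultured libraries 1, 2 and 3, and at 2.25, 3.91 and 2.85 CPM in tumour libraries 1, 2 and 3. That difference did not pass, with a log2 change of -0.67 ± 0.29 (SE; adjusted p = 0.0944 by limma). It passed with libraries centred on the median (-0.89, limma adjusted p = 0.0336) and after quantile normalization (-2.40, limma adjusted p = 0.000671), where 3 ligands were called lower. Ccl25 shares 204 exon bases with Elavl1 on the opposite strand.

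The membrane-anchored chemokines Cx3cl1 and Cxcl16 were both made in culture, and Cx3cl1 rose. Cx3cl1 (fractalkine), which holds and calls monocytes through Cx3cr1, stood at 54.1, 35.9 and 45.7 CPM in cultured libraries 1, 2 and 3, and at 166, 171 and 132 CPM in tumour libraries 1, 2 and 3. Libraries within a group were close and the groups did not overlap, with a log2 change of 1.80 ± 0.19 (SE; adjusted p = 0.000171 by limma). Cxcl16, which binds Cxcr6, stood at 241, 76.4 and 143 CPM in cultured libraries 1, 2 and 3, and at 323, 243 and 299.7 CPM in tumour libraries 1, 2 and 3. Its lowest tumour value was just above its highest cultured one, and the log2 change of 1.06 ± 0.38 (SE; adjusted p = 0.0521 by limma) missed the threshold. Without cultured library 1 the change of Cxcl16 was 1.46 (limma adjusted p = 0.00858). Cxcl16 shares 552 exon bases with Zmynd15 on the opposite strand, and without strand their reads cannot be told apart there.

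Ccl5, a ligand of Ccr1 and Ccr3 made by T cells and many other cells, did not pass. It stood at 11.3, 12.1 and 17.8 CPM in cultured libraries 1, 2 and 3, and at 18.6, 12.2 and 13.8 CPM in tumour libraries 1, 2 and 3. The groups overlapped and the SE was small, with a log2 change of 0.12 ± 0.26 (SE; adjusted p = 0.724 by limma), and the sign of the change differed between scalings. Its neighbours in the chromosome 11 cluster, Ccl3, Ccl4, Ccl6 and Ccl9, were all higher.

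**Figure D3:**
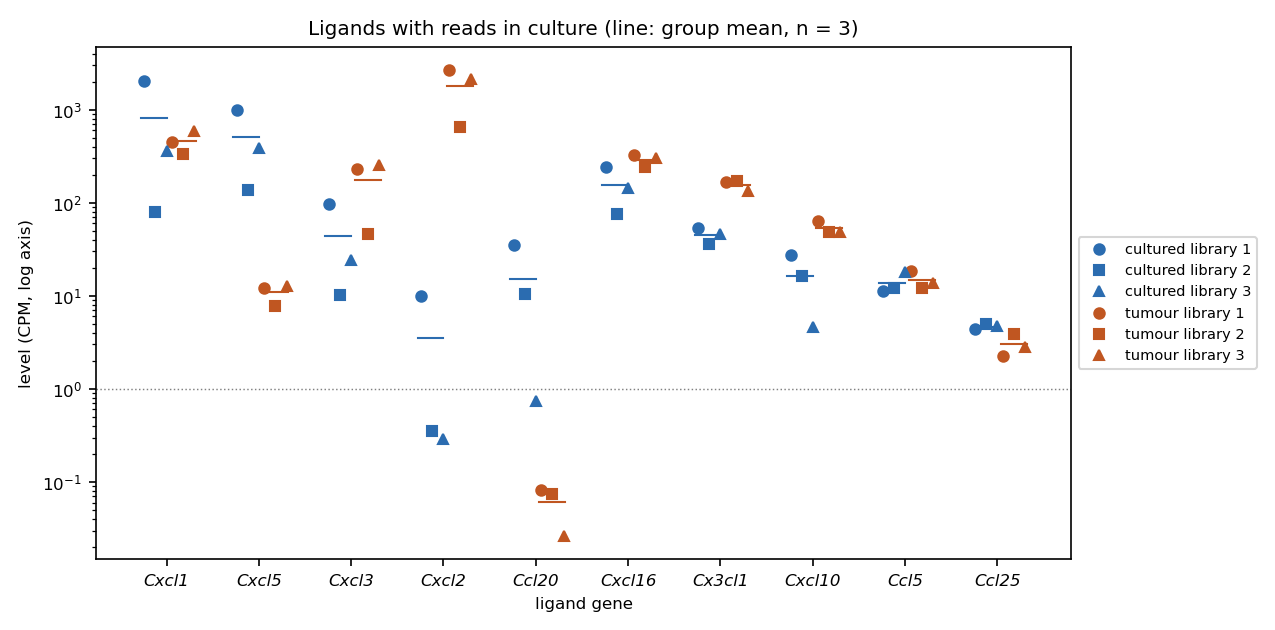
Level in CPM on a log axis of the 8 ligands made in culture and of Cxcl2 and Ccl20, by library; short lines are group means (n = 3) and the dotted line is 1 CPM. Cxcl5 and Ccl20 are lower and Cxcl2 higher in all 3 tumour libraries, while cultured libraries of Cxcl1 run from 78.8 to 2014 CPM.

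The ligands of Cxcr3, which interferon gamma induces and which call T and NK cells, were higher in 3 of 3 cases, beside 29.5% of all genes. Cxcl9, with 10 cultured reads, is in the table only through its tumour reads. They lie within 44 kb on chromosome 5. Cxcl9 stood at 0.164, 0.0663 and 0 CPM in cultured libraries 1, 2 and 3, and at 148, 85.1 and 103 CPM in tumour libraries 1, 2 and 3, a log2 change of 10.88 ± 0.83 (SE; adjusted p = 2.33e-05 by limma). Cxcl10 stood at 27.7, 16.1 and 4.56 CPM in cultured libraries 1, 2 and 3, and at 62.8, 48.9 and 48.8 CPM in tumour libraries 1, 2 and 3, a log2 change of 2.07 ± 0.58 (SE; adjusted p = 0.0212 by limma). Cxcl11, which GENCODE M21 annotates as a polymorphic pseudogene, stood at 2.37, 0.972 and 0.115 CPM in cultured libraries 1, 2 and 3, and at 24.5, 20.3 and 18.0 CPM in tumour libraries 1, 2 and 3, a log2 change of 4.95 ± 0.94 (SE; adjusted p = 0.00349 by limma). The groups of all 3 were apart, with Cxcl9 almost absent from culture and Cxcl10 already made there. The call for Cxcl10 was lost without any 1 of the tumour libraries (limma adjusted p = 0.0665 without 1, 0.0584 without 2 and 0.0546 without 3). Cultured library 3 was the lowest for all 3 genes, and without it the changes of Cxcl9, Cxcl10 and Cxcl11 were 9.87, 1.33 and 3.77. Without cultured library 1 the changes of Cxcl9 and Cxcl11 were 11.68 and 5.87. On the opposite strand Cxcl10 shares 133 exon bases with Art3, and Cxcl11 shares 1582 with the pseudogene Gm2673.

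Inflammatory CC ligands were higher in 4 of 5 cases, beside 29.5% of all genes, with a median log2 change of 9.06. Ccl3, Ccl4 and Ccl9, with 9, 49 and 38 cultured reads, are in the table only through their tumour reads. Ccl3, made by macrophages and neutrophils, stood at 0.117, 0.0442 and 0.0574 CPM in cultured libraries 1, 2 and 3, and at 766, 149.9 and 509.9 CPM in tumour libraries 1, 2 and 3. Ccl4, which calls monocytes and T cells, stood at 0.540, 0.331 and 0.316 CPM in cultured libraries 1, 2 and 3, and at 369.8, 109 and 235 CPM in tumour libraries 1, 2 and 3. Both showed large gaps between groups and the lowest tumour value in tumour library 2, with log2 changes of 12.25 (SE 0.62; limma, adjusted p = 2.97e-06) and 9.06 (SE 0.45, limma adjusted p = 2.94e-06). Leaving out 1 library moved the change of Ccl3 from 11.76 without tumour library 1 to 12.93 without tumour library 2. Ccl6 stood at 1.24, 0.707 and 1.38 CPM in cultured libraries 1, 2 and 3, and at 467, 444 and 843 CPM in tumour libraries 1, 2 and 3, with a log2 change of 9.02 ± 0.34 (SE; adjusted p = 1.10e-06 by limma). Ccl9 stood at 0.633, 0.177 and 0.0861 CPM in cultured libraries 1, 2 and 3, and at 252, 200.3 and 423 CPM in tumour libraries 1, 2 and 3, with a log2 change of 10.24 ± 0.65 (SE; adjusted p = 8.49e-06 by limma). For Ccl9 that range was from 9.64 without cultured library 3 to 10.98 without cultured library 1. Ccl6 and Ccl9, ligands of Ccr1 made by myeloid cells of mice, had their highest tumour value in tumour library 3. Summed macrophage and monocyte markers (8604 CPM) and fibroblast markers (7886 CPM) were also highest in that library, although the macrophage markers Csf1r, Itgam, Cd68 and Fcgr1 were highest in tumour library 1.

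All 6 CC ligands of monocytes and eosinophils with a row were higher, beside 29.5% of all genes. Of these, 4 held at most 3 reads in culture, which fixed their direction, and Ccl7 held 5. Ccl2, the main ligand of Ccr2 on monocytes, stood at 3.99, 0.110 and 0.402 CPM in cultured libraries 1, 2 and 3, and at 103, 92.0 and 173 CPM in tumour libraries 1, 2 and 3, a log2 change of 7.65 ± 1.11 (SE; adjusted p = 0.000878 by limma). It was the only ligand of this class above 1 CPM in any cultured library, and its change ran from 6.51 without cultured library 2 to 9.03 without cultured library 1. Ccl7 stood at 0.0938, 0.0221 and 0 CPM in cultured libraries 1, 2 and 3, and at 68.9, 84.8 and 141 CPM in tumour libraries 1, 2 and 3, a log2 change of 11.31 ± 0.70 (SE; adjusted p = 7.41e-06 by limma). The change of Ccl7 ran from 10.63 without cultured library 3 to 12.07 without cultured library 1. Tumour levels were 127, 191 and 256 CPM for Ccl8, 45.2, 31.3 and 87.1 CPM for Ccl24 and 22.8, 22.2 and 34.9 CPM for Ccl12, in tumour libraries 1, 2 and 3. In these 5 genes tumour library 3 was the highest. Ccl8, a ligand of Ccr8, had 3 reads in culture and a ratio of CPM of 7858 (95% counting interval 2689 to 38107). Ccl24, a ligand of Ccr3 on eosinophils, also had 3 reads and a ratio of 2213 (95% counting interval 757 to 10732). Ccl12 and Ccl11 (eotaxin) had 0 reads in culture and were at least 1088-fold and 545-fold higher, taking 3 reads over the cultured group as the floor. Ccl2, Ccl7, Ccl11, Ccl12 and Ccl8 are neighbours within 81 kb on chromosome 11. Intervals and floors cover counting error only.

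The remaining ligands seen only in tumour libraries, or low in culture, included stromal and homing chemokines. Cxcl14 stood at 0.0469, 0.0883 and 0.0574 CPM in cultured libraries 1, 2 and 3, and at 135, 123 and 104 CPM in tumour libraries 1, 2 and 3, with close tumour libraries and a log2 change of 10.64 ± 0.31 (SE; adjusted p = 6.42e-07 by limma). Cxcl12, the stromal ligand of Cxcr4, had 0 reads in culture and 15.5 ± 6.72 CPM (SD, n = 3) in tumour libraries, at least 633-fold higher. Cxcl13, which calls B cells through Cxcr5, had 0 reads and 5.97 ± 1.76 CPM (SD, n = 3), at least 244-fold higher. The Ccr4 ligands Ccl22 and Ccl17, made by dendritic cells, reached 7.50 ± 5.84 CPM (SD, n = 3) and 2.20 ± 0.780 CPM (SD, n = 3). Ccl22 had 0 cultured reads and Ccl17 had 5.

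Receptors were almost absent from culture. Of 17, 15 were higher and 0 lower (limma, 2 did not pass), and 5 of the 15 held at most 3 reads in culture, which fixed their direction. Ackr3 and Ccr10 were the only receptors with at least 1 CPM in every cultured library. Of the 3 receptors with at least 61 reads in culture, Ccrl2 was the 1 that was higher. Median log2 change over the 17 was 7.02 (6.32 with genes at 0 cultured reads set to their bound), against 0.08 over all genes. The share of receptors called higher was 88.2%, beside 29.5% of all genes, and the 61-read floor of the table in part set it. Among all genes with at least 61 reads in culture, 18.9% were higher.

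The CC receptors of monocytes and macrophages went from a few reads in culture to among the highest receptor levels in the tumour libraries. Per kilobase of exon, signalling receptors there included Cxcr4 (117 ± 34.2 CPM per kb, SD, n = 3), Ccr1 (104 ± 47.9), Ccr2 (28.0 ± 7.04) and Cx3cr1 (12.9 ± 1.28). Cxcr4 and Ccr1 lay within their SD. Ccr1 stood at 0.0938, 0.0221 and 0 CPM in cultured libraries 1, 2 and 3, and at 434, 162 and 288 CPM in tumour libraries 1, 2 and 3, a log2 change of 12.85 ± 0.72 (SE; adjusted p = 4.64e-06 by limma). Ccr2 stood at 0.0938, 0.0221 and 0.0287 CPM in cultured libraries 1, 2 and 3, and at 199, 137 and 231 CPM in tumour libraries 1, 2 and 3, a log2 change of 11.76 ± 0.47 (SE; adjusted p = 1.19e-06 by limma). Both had at most 6 reads in culture and were lowest in tumour library 2. Leaving out 1 library moved Ccr1 from 12.17 without cultured library 3 to 13.61 without cultured library 1. Cxcr6, Xcr1 and Ccr3, which like them lie on chromosome 9, were also higher. Cx3cr1, the fractalkine receptor of monocytes and macrophages, stood at 0.0469, 0.110 and 0.230 CPM in cultured libraries 1, 2 and 3, and at 64.2, 57.8 and 52.6 CPM in tumour libraries 1, 2 and 3. Its tumour libraries were close, and it did not share the low value of tumour library 2, with a log2 change of 8.91 ± 0.50 (SE; adjusted p = 4.87e-06 by limma). On the opposite strand Cx3cr1 shares 78 exon bases with Gm33858.

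Ccrl2, an atypical receptor that binds chemerin and does not signal through G proteins, had the highest tumour level per kilobase of the 17 receptors, at 386 ± 186 CPM per kb (SD, n = 3). It stood at 1.48, 0.751 and 0.201 CPM in cultured libraries 1, 2 and 3, and at 1454, 491 and 1061 CPM in tumour libraries 1, 2 and 3, a log2 change of 10.51 ± 0.70 (SE; adjusted p = 1.09e-05 by limma). Cultured library 1 was above 1 CPM and the other 2 below it, and the tumour libraries differed 2.96-fold. Its change ran from 9.74 without cultured library 3 to 11.14 without cultured library 1. Ackr3, which takes up Cxcl12 and Cxcl11, was the receptor with the highest cultured level per kilobase, with a mean of 38.0 CPM per kb. It stood at 117, 175 and 90.1 CPM in cultured libraries 1, 2 and 3, and at 147, 188 and 127 CPM in tumour libraries 1, 2 and 3. These values overlapped, with a log2 change of 0.31 ± 0.27 (SE; adjusted p = 0.364 by limma) and no call. Ackr2, a scavenger of inflammatory CC ligands, had 2 cultured reads and reached 0.577 ± 0.252 CPM (SD, n = 3). Ccr10, which binds Ccl27 and Ccl28, stood at 2.96, 3.20 and 2.07 CPM in cultured libraries 1, 2 and 3, and at 1.27, 1.33 and 1.82 CPM in tumour libraries 1, 2 and 3. Its tumour values all lay below the cultured ones, but the log2 change of -0.88 ± 0.32 (SE; adjusted p = 0.0544 by limma) missed the threshold, and without cultured library 3 the change was -1.07 (limma adjusted p = 0.0182).

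CXC receptors were higher in 6 of 6 cases, beside 29.5% of all genes, at very different levels. With at most 35 cultured reads each (Cxcr3), all 6 are in the table only through their tumour reads. The read floor of the table therefore in part set this count. Cxcr4, the receptor of Cxcl12, stood at 0.0938, 0.0663 and 0.0287 CPM in cultured libraries 1, 2 and 3, and at 234, 142 and 259 CPM in tumour libraries 1, 2 and 3, a log2 change of 11.50 ± 0.41 (SE; adjusted p = 9.57e-07 by limma). Cxcr2, the neutrophil receptor of Cxcl1, Cxcl2, Cxcl3 and Cxcl5, stood at 59.1, 4.23 and 19.0 CPM in tumour libraries 1, 2 and 3. It had 2 reads in culture and a ratio of CPM of 1634 (95% counting interval 452 to 13498), from tumour libraries that differed 14.0-fold. Its fitted log2 change ran from 8.74 without tumour library 1 to 10.64 without tumour library 2. Cxcr1, a second receptor of neutrophils, had 0 cultured reads and stood at 4.77, 0.394 and 2.08 CPM in the tumour libraries. Cxcr3, the T and NK cell receptor of Cxcl9, Cxcl10 and Cxcl11, reached 6.89 ± 0.696 CPM (SD, n = 3) with a log2 change of 5.05 ± 0.76 (SE; adjusted p = 0.00106 by limma), which ran from 4.38 without cultured library 1 to 5.99 without cultured library 3. Cxcr5 and Cxcr6 stayed low, at 0.790 ± 0.596 CPM (SD, n = 3) and 0.822 ± 0.164 CPM (SD, n = 3) in the tumour libraries, and Cxcr5 shares 110 exon bases with Bcl9l on the opposite strand. Among the other receptors, Ccr7, which guides dendritic cells and T cells to lymph nodes, reached 13.5 ± 10.1 CPM (SD, n = 3), while Ccr3 of eosinophils and Xcr1 of dendritic cells reached 1.99 ± 1.54 CPM (SD, n = 3) and 0.661 ± 0.321 CPM (SD, n = 3). After quantile normalization the changes of Ackr2, Cxcr5 and Cxcr6 were -0.17, -0.53 and -1.22. These 3, Cxcr1 and Xcr1 lost their calls there, which left 10 of 17 receptors higher.

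Ligands were set beside receptors by 39 textbook pairs, of which 28 had both genes in the table. Both genes were higher in 18 pairs. The receptor was higher and the ligand did not pass in 6 pairs (Cxcl1 and Cxcl3 with Cxcr2, Cxcl16 with Cxcr6, and Ccl5 with Ccr1 and Ccr3 among them). The receptor was higher and the ligand lower in 2, Cxcl5 with Cxcr2 and with Cxcr1. The last 2 pairs were Cxcl11 and Cxcl12 with Ackr3, where the ligand was higher and the receptor did not pass. Most members were higher, so a count of pairs in which both rose adds little to the counts of single genes.

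In culture no listed receptor of a culture-made ligand was itself made there. In all 10 pairs with a ligand made in culture, the receptor stood below 1 CPM in at least 1 cultured library. Cxcr2 and Cxcr1 had 2 and 0 reads over the cultured libraries, beside 817 ± 1045 CPM (SD, n = 3) for Cxcl1 and 509 ± 442 CPM (SD, n = 3) for Cxcl5. Cx3cr1 had 15 reads in culture beside 45.2 ± 9.09 CPM (SD, n = 3) for Cx3cl1, and Cxcr6 had 14 beside 153 ± 82.7 CPM (SD, n = 3) for Cxcl16. Ackr3, at 127 ± 43.5 CPM (SD, n = 3) in culture, was the reverse case, a receptor whose ligand Cxcl12 had 0 cultured reads. Its other listed ligand, Cxcl11, stood at 2.37, 0.972 and 0.115 CPM in cultured libraries 1, 2 and 3. In the tumour libraries Cxcr4 had a mean of 212 ± 61.8 CPM (SD, n = 3) and Ackr3 one of 154 ± 31.1 CPM (SD, n = 3), beside 15.5 ± 6.72 CPM (SD, n = 3) for Cxcl12. For Ccl8, Ccl20, Ccl25, Ccl17 and Ccl22, and for Ccr7, Ccr10 and Xcr1, no partner in the pairs was among the genes analysed here.

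**Figure D4:**
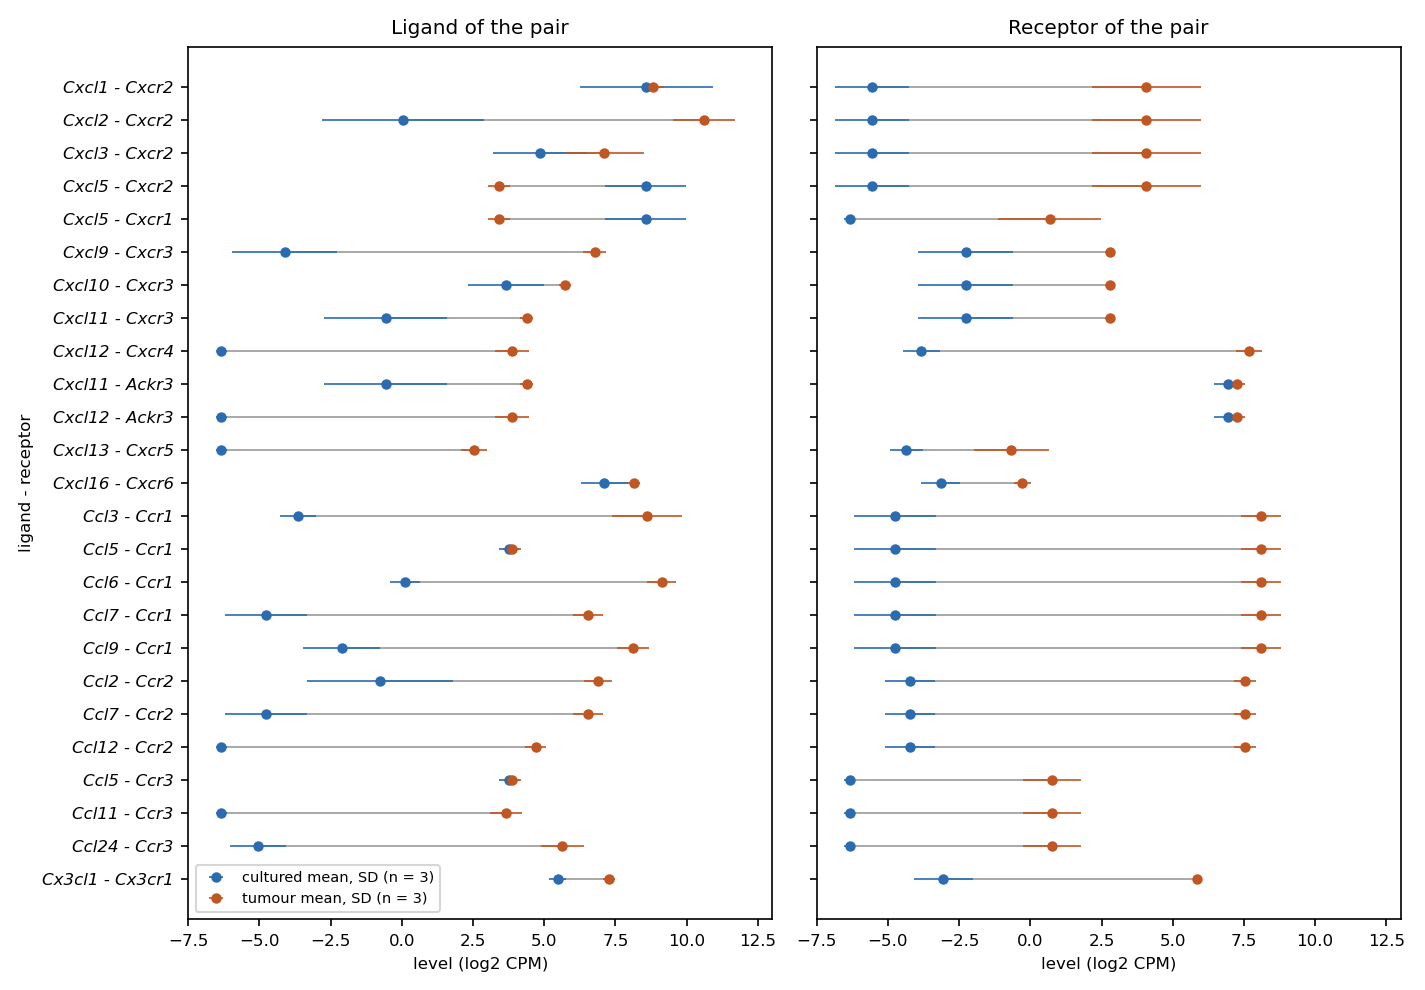
Mean level on the log2 CPM scale with SD (n = 3) of the ligand (left) and the receptor (right) of 25 of the 28 pairs with both genes in the table, blue for cultured and orange for tumour libraries. Receptors other than Ackr3 stand far to the left in culture, and Cxcl5 is the ligand whose tumour mean lies to the left of its cultured mean.

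Tumour library 2 stood apart for several members, as a description with no test. Among the 36 members whose tumour mean reached 1 on the log2 CPM scale, it was the lowest of the 3 tumour libraries in 25. The median difference from the mean of tumour libraries 1 and 3 was -0.54 on the log2 scale. It was largest for Cxcr2 (-2.98), Cxcl3 (-2.40), Ccl3 (-2.06), Cxcl2 (-1.86) and Ccl22 (-1.80), and 10 members were lower there by more than 1. These counts and this median were not computed over all genes. Cxcl14 (0.06), Ccl8 (0.08), Cx3cl1 (0.21), Cxcl13 (0.28), Ackr3 (0.46) and Ccl25 (0.62) were not lower. By the same measure the neutrophil markers had a median of -3.16, lower in 6 of 6 that reached that level, and the macrophage markers one of -0.34, lower in 11 of 11. The endothelial markers had a median of -0.63, lower in 5 of 5, and the fibroblast markers one of -0.29, lower in 6 of 7. The epithelial markers had a median of -0.03. The part of these cells in the low members was not tested. Without tumour library 2, limma called 20 ligands higher and 2 lower and 15 receptors higher, with Cxcl3 gaining a call and Cxcl10 losing its own.

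**Figure D5:**
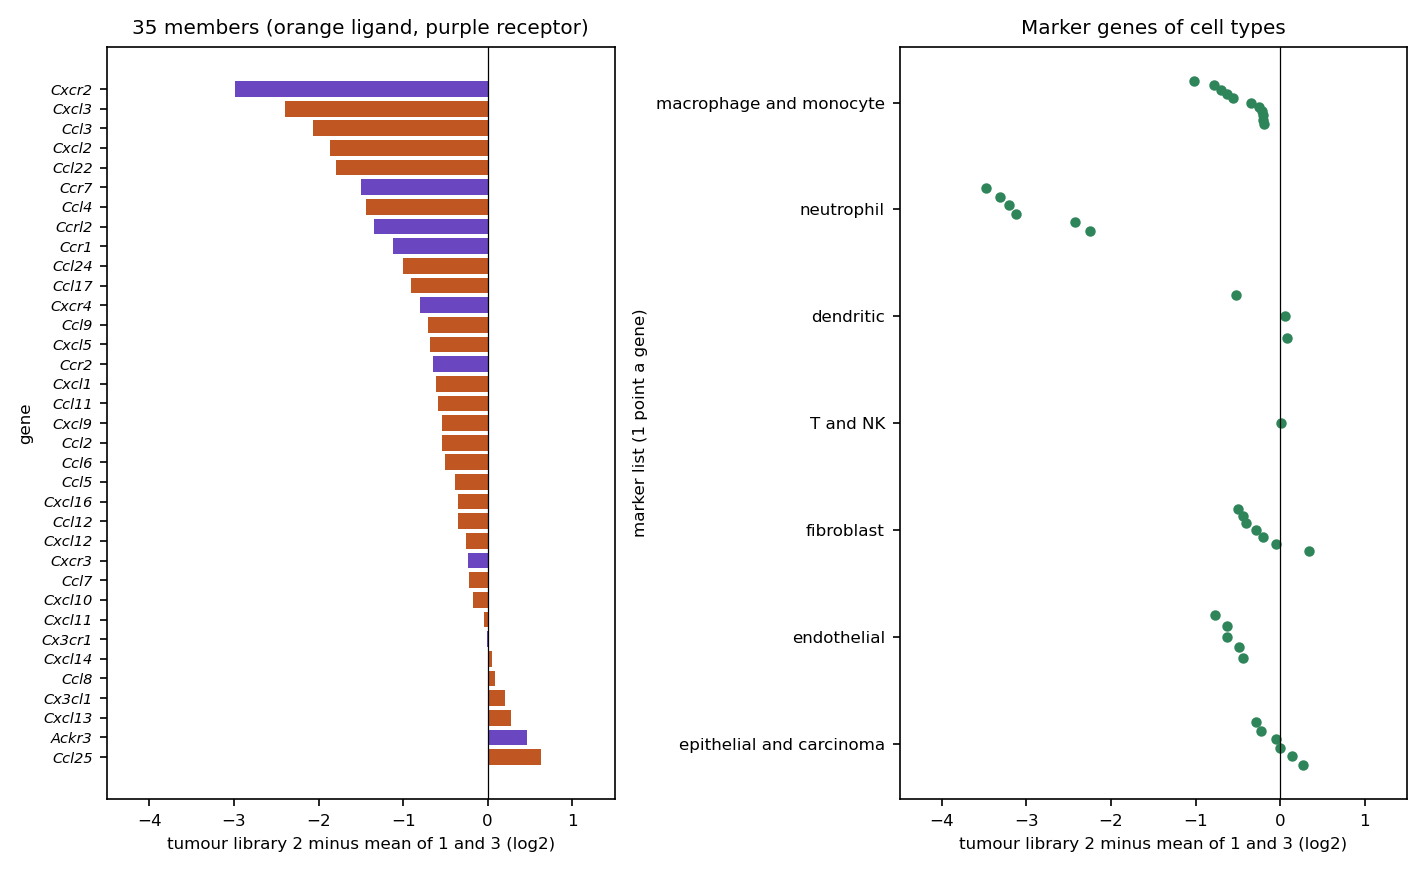
Level in tumour library 2 minus the mean of tumour libraries 1 and 3, on the log2 scale, for 35 of the 36 members (left; orange ligands, purple receptors) and for marker genes of cell types (right; 1 point per gene). Cxcr2 and Cxcl3 lie furthest to the left among members, in the range of the neutrophil markers.

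The cultured libraries also differed in a shared way. Of the 10 members made in culture, cultured library 1 was the highest in 6, Cxcl1, Cxcl3, Cxcl5, Cxcl10, Cxcl16 and Cx3cl1. Nfkbia, an inhibitor and target of NF-kB, stood at 356, 92.8 and 170.0 CPM in cultured libraries 1, 2 and 3. Relb, another target and a subunit of NF-kB, stood at 132, 51.4 and 38.0 CPM, and Csf2, a growth factor of granulocytes and macrophages, at 80.8, 14.9 and 20.8 CPM. For Csf3, which mobilises neutrophils, the values were 236, 72.8 and 198 CPM. Cultured library 1 was the highest for these 4 genes as well, and their part in the chemokine levels was not tested.

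Genes of the chemokine pathway outside the naming rule were taken from a list of 62 genes with a row. Of these, 43 were higher and 2 lower (limma at 0.05, where 29.5% and 18.8% of all genes were), with a median log2 change of 1.94. The read floor of the table in part set this count and the subgroup counts below. The 6 pathway genes at 0 cultured reads had to be higher, and others, such as Pf4, are in the table only through their tumour reads. Among all genes with enough cultured reads to reach that floor, 18.9% were higher. That share was not computed for the pathway genes. Pf4 (Cxcl4) and Ppbp (Cxcl7), platelet chemokines whose symbols do not match the rule, were higher, Pf4 from 3 cultured reads to 47.5 ± 18.6 CPM (SD, n = 3) in the tumour libraries. Ppbp went from 1.70 ± 0.645 CPM (SD, n = 3) to 5.30 ± 3.22 CPM (SD, n = 3). The call for Ppbp was kept in 2 of 6 fits without 1 library. Mif, a chemokine-like cytokine that binds Cxcr4, did not pass, at 170.1 ± 40.5 CPM (SD, n = 3) and 189 ± 8.93 CPM (SD, n = 3).

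Of 13 genes of G protein signalling, 7 were higher and 6 did not pass, the latter including the widely expressed Gnai3 (0.01) and Gnb1 (0.01). The leukocyte genes Pik3cg and Prex1, effectors of chemokine receptors, had log2 changes of 10.28 (SE 0.79) and 8.63 (SE 0.44), and Pik3r5 one of 3.78. Without 1 library that of Pik3cg ran from 9.72 without cultured library 1 to 11.26 without cultured library 2. Plcb2 and Gnai1 had 0 cultured reads and were at least 1549-fold and 30.8-fold higher. Of 14 genes of actin and migration, 11 were higher and 1, the focal adhesion kinase gene Ptk2, was lower (-0.76, SE 0.14, limma adjusted p = 0.00320). The leukocyte genes Vav1 and Rac2 had changes of 11.20 and 10.72, and Dock2 and Fgr went from 1 and 2 cultured reads to 103 ± 33.5 CPM (SD, n = 3) and 69.2 ± 28.8 CPM (SD, n = 3). The change of Vav1 ran from 10.39 without cultured library 3 to 11.79 without cultured library 2. Among 10 genes of receptor desensitisation, 7 were higher and 0 lower. Rgs1, which damps chemokine receptor signals in leukocytes, reached 392 ± 110.2 CPM (SD, n = 3) with 5 reads in culture, Rgs2 had a change of 6.48 and Arrb2, a beta-arrestin, one of 1.85. Adrbk2 and Rgs18 had 0 cultured reads and were at least 2032-fold and 88.3-fold higher.

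Of 10 genes that cut, shed or bind chemokines, 9 were higher and 0 lower. Dpp4, which clips the amino end of many chemokines, had 0 cultured reads and reached 8.73 ± 4.51 CPM (SD, n = 3), at least 354-fold higher. The neutrophil collagenase gene Mmp8 likewise had 0 cultured reads and was at least 1151-fold higher. Mmp12, Mmp2 and the proteoglycan Vcan had changes of 11.41, 8.02 and 6.63. Adam10 and Adam17, which shed Cx3cl1 and Cxcl16 from the membrane, were present in culture and had changes of 1.17 (SE 0.17) and 0.65 (SE 0.21, limma adjusted p = 0.0342). The call for Adam17 was kept in 3 of 6 fits without 1 library. Of 12 inducers, 7 were higher and 1, Csf2 (-2.36, limma adjusted p = 0.0166), was lower. The change of Csf2 ran from -2.84 without cultured library 2 to -1.62 without cultured library 1, with the call kept in 4 of 6 such fits. Among the inducers the cytokines Il1b (10.38, SE 0.59) and Tnf (9.48, SE 0.85) had the largest changes, and others were Il1a (3.80) and Nfkbia (2.51). Without 1 library Il1b ran from 9.89 without cultured library 3 to 11.00 without cultured library 2, and Tnf, at 1.22, 0.133 and 0.144 CPM in cultured libraries 1, 2 and 3, from 8.94 without cultured library 2 to 10.49 without cultured library 1. The NF-kB subunit Rela (-0.14) did not pass. Summed macrophage markers, at 14.2 to 26.1 CPM in culture and 5901 to 8604 CPM in the tumour libraries, moved with these leukocyte genes too, and their part was not tested.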

How the data were processed

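Deposited by the authors is 1 table holding log2 values of 13912 gene symbols in 6 libraries, 3 cultured and 3 tumour. Per the submitters' processing notes, reads were aligned with HISAT to mm10, counted with HTSeq and processed with limma, with no versions given. The deposited log2 values have the form of voom log2 CPM with 0.5 reads added and TMM-scaled totals. Solving for reads gave whole numbers within 0.01 in 100% of values. From these reads CPM was computed. The 2 groups were tested by limma 3.58.1 (R 4.3.3) on these values (variance trend, two-sided, Benjamini-Hochberg over all genes, 0.05). Count models were not run, because the deposited unit is log2. Reads of 13912 genes were simulated at 1 dispersion of 0.04, and 200 genes with a cultured mean above 3 log2 CPM were changed. The fit recovered 75% of genes changed 2-fold and 100% changed 4-fold, with 9 false calls among 184. The members' median cultured level was -3.29 log2 CPM, and some spread widely, as Cxcl1 with a cultured SD of 2.34 log2. These rates therefore do not carry over to members that are low or widely spread in culture.

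Members, lists and pairs were chosen with earlier results of these data known. Values in every library are given for members with a higher group mean of at least 4 log2 CPM, those made in culture and those called lower. Pathway genes named are mainly the up to 5 called with the largest change per subgroup, and others were chosen after their values were seen. Exon lengths and coordinates are from GENCODE M21 (GRCm38, the assembly mm10 names), where all 44 members matched. Promoters matched 31 of 44. The sources used here do not say whether counting used strand. The summary of ligands made in culture under other totals and without single libraries was chosen after seeing the data. Some genes that were tested and counted are not reported here by name or in figures.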

Additional observations from a re-analysis of the deposited data

How the results depend on the processing

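No paired analysis was possible because the label numbers of the groups are not shared. Alternatives were no variance trend, voom precision weights, other scalings, 2 reads added, a filter at a group mean of 1 log2 CPM and leaving out each library. Across 566 comparisons of a member with an alternative, direction and side of the threshold were kept in 538, and 32 of 44 members kept both under all alternatives run. Calls of ligands ranged from 19 to 22 higher and stayed at 2 lower without 1 library. Receptors called higher fell from 15 to 9 under the filter, which left 11 to test, and to 10 of 17 tested under quantile normalization. Ligands called lower rose to 3 (Ccl25) when centred on the median and under quantile normalization. Receptors called lower rose from 0 to 1 (Ccr10) with 2 reads added, libraries centred on the median, no variance trend, quantile normalization or totals without TMM, and ranged from 0 to 1 without 1 library. Pathway genes called lower ranged from 1 to 4 without 1 library. Ligands made in culture numbered 13 by a cultured mean of 1 CPM. Signs reversed for Ackr2 (-0.17), Cxcr5 (-0.53) and Cxcr6 (-1.22) under quantile normalization, for Ccl5 when centred on the median (-0.10), under quantile normalization (-0.39) and without TMM (-0.030), and for Cxcl1 when centred on the median (-0.014). Without 1 library the change ranged from -0.048 to 0.33 for Ccl5 and from -0.93 to 1.40 for Cxcl1. The cause was not tested. The median change of all genes was 0.08 as deposited, -0.14 when centred on the median, -0.07 without TMM and -0.32 after quantile normalization. Depth limits mainly members with a few cultured reads.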
